A study of Mus musculus with 15 samples.

Results

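Liver macrophages that lack CD11c on their surface were compared between mice with steatohepatitis and healthy mice. Of the 15 arrays of the series, 10 were used, namely the 5 titled MC4R_WD CD11c-negative and the 5 titled WT_SD, which are the groups chosen for the comparison by their titles. The other 5 arrays, from CD11c-positive cells of the diseased livers, entered only the shared estimate of the spread, the choice of genes tested and the choice of a gene's probe. The diseased cells came from male MC4R-KO mice, which lack the melanocortin 4 receptor that restrains food intake, and which ate a Western diet for 20 weeks from 8 weeks of age. The disease state of these livers is given as NASH, non-alcoholic steatohepatitis. The healthy cells came from male wildtype mice kept on standard diet, labelled normal and of unstated age. In both groups the liver was dissociated with collagenase and cells with high F4/80 and no CD11c were sorted. Genotype and diet always changed together, so their effects cannot be told apart. RNA of a sample was pooled from 7 to 9 mice, and nothing states that the arrays of a group came from separate pools, so that the p-values below reflect the variation among these samples alone, possibly a technical one.

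Kupffer cells are the resident macrophages of the liver. They line the sinusoids, clear particles, old red cells and haem from portal blood, and keep their identity through signals from neighbouring endothelial, stellate and liver cells, among them Notch ligands and members of the TGF-beta and bone morphogenetic protein family. In steatohepatitis, resident cells are known to be lost and partly replaced by monocyte-derived macrophages, which handle the lipid of dying liver cells. The labels call the cells of both groups resident, but the gate used here does not separate resident cells from recruited cells with high F4/80. In such bulk samples fewer cells of a type and less RNA per cell cannot be told apart.

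Expression was measured with one-colour Agilent arrays. A level below is the log2 signal of a gene relative to the 75th percentile of its array, a change is the mean level of the 5 NASH arrays minus the mean of the 5 wildtype arrays, given with the standard error of limma, and a gene passed at a Benjamini-Hochberg adjusted p under 0.05 from limma. The 75th percentile lay between 358.6 and 444.6 signal units over the 10 arrays, and between 46.7% and 58.0% of its spots passed the scanner software's test against background. Genes were tested, and are called measured below, where a probe was well above background on at least 4 of the 5 arrays of a group, the CD11c-positive group included. Of the genes tested, 12 were not well above background on any array of either compared group. Of 13391 genes tested, 10280 passed (76.8%), 6466 of them higher (48.3%) and 3814 lower (28.5%) in NASH cells. At least 2-fold changes were made by 694 genes upward (5.18%) and 833 downward (6.22%), and at least 4-fold changes by 157 (1.17%) and 190 (1.42%). For 8588 genes (64.1%) all NASH arrays lay on one side of all wildtype arrays. Counts of list and family members below are to be set beside these shares of all genes. The median gene changed by 0.13 with this scaling and by 0.00 after quantile normalization, which shifts small changes downward, so that 4835 genes were then higher and 5040 lower. Small changes are given below with both scalings where their sign depends on it. With normexp background correction, an alternative that compresses dim signals, the 2-fold counts were 424 and 350, and 52 of the genes named below moved by over 1.5 times. That value is given beside those whose arrays are listed and those above background on only some arrays of a group, where the difference rests on signals near background and is no measured fold. Where a gene was not well above background on any array of a group, its fold is a bound that holds only for the background-subtracted signal used here. It is the mean of the brighter group against the mean, in the dimmer, of the higher of an array's lowest signal among probes well above background and the gene's own. With normexp, each of the 14 genes named with a bound changed by less than that bound, which therefore does not hold there. Such genes could not enter the test through their dimmer group. Their small adjusted p, at most 2.99e-07 (limma), was favoured by that filter and is no separate support. In a principal component analysis of the 10 arrays, the leading component held 81.4% of the variance and separated the groups, and the next, with 5.72%, separated the 2 slides, each of which carried arrays of both groups.

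**Figure D1:**
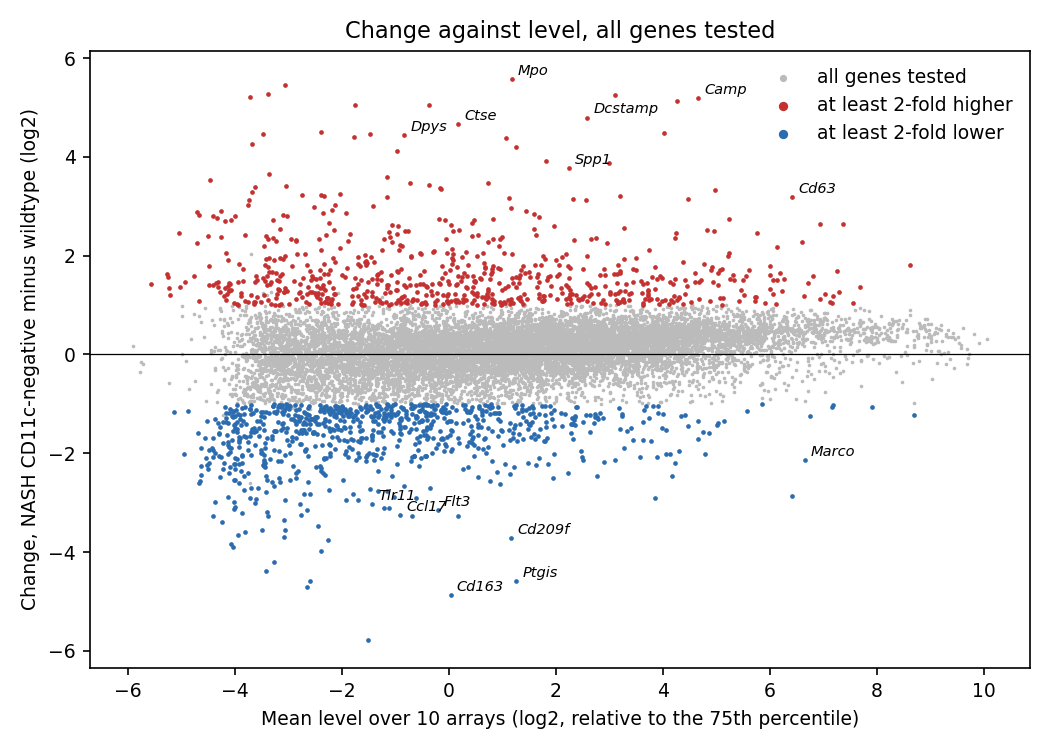
Change of each of 13391 genes (NASH CD11c-negative minus wildtype, log2, y axis) against its mean level over the 10 arrays (log2 relative to the array's 75th percentile, x axis). Grey points are all genes, coloured points are the 694 genes that rose and the 833 that fell by 2-fold or more at adjusted p under 0.05, and the labelled genes are described in the text.

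The sort could be checked in part from the RNA. Adgre1, which encodes F4/80, was present at 7.28, 7.30, 7.36, 7.36 and 7.39 on the wildtype arrays and at 7.66, 7.76, 7.69, 7.76 and 7.82 on the NASH arrays. It was high in both groups, with a change of 0.40 ± 0.033 that turned to -0.06 after quantile normalization. Csf1r, the receptor for the macrophage growth factor CSF1, changed by 0.05 ± 0.043 on its brightest probe and did not pass (adjusted p = 0.278, limma), while quantile normalization gave -0.22 and another probe of the gene -0.40. Itgax, which encodes CD11c, was measured at 4.20, 4.22, 4.17, 4.24 and 4.25 in wildtype cells and at 5.91, 5.90, 5.85, 6.04 and 5.96 in NASH cells. Although both groups were sorted as CD11c-negative, the NASH arrays were all higher, by 1.72 ± 0.033. Mc4r, the deleted gene, stood above background on 0 of the 10 arrays, so its probe does not check the genotype.

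The RNA of surface and secreted genes of Kupffer cells fell, while that of the transcription factors of these cells changed by less than 2-fold. All 15 surface and secreted genes of Kupffer cells passed downward, 9 of them at least 2-fold, with a median of -1.07 against 0.13 over all genes, of which 28.5% passed downward. Of 12 transcription factors known from Kupffer cells, 5 rose, 4 fell and 3 did not pass, so that 75% passed, beside 76.8% of all genes. None reached 2-fold, and the median was 0.06, or -0.21 after quantile normalization. This list was chosen with earlier results of these arrays known, as were all lists below. Cd163, the receptor that takes up haemoglobin bound to haptoglobin, had levels of 2.48, 2.41, 2.44, 2.51 and 2.50 in wildtype cells and -2.47, -2.44, -2.37, -2.37 and -2.39 in NASH cells. The groups lay 29.4-fold apart without overlap (-4.88 ± 0.049, adjusted p = 4.1e-18, limma; -3.89 with normexp). Marco, a scavenger receptor for bacteria and particles, had wildtype levels of 7.68, 7.66, 7.68, 7.79 and 7.76 and NASH levels of 5.52, 5.54, 5.50, 5.65 and 5.68. Every NASH array was below every wildtype array, by -2.14 ± 0.04 on average. C6, a component of the membrane attack complex (-1.96 ± 0.065), and Kcna2, a potassium channel gene used as a Kupffer cell marker (-1.86 ± 0.053), fell to a similar extent. At the other end of the list, Cd5l, a secreted scavenger protein of Kupffer cells, changed by -0.18 ± 0.043 and Clec1b, a lectin receptor, by -0.18 ± 0.027. Among the transcription factors, Rxra, a partner of many nuclear receptors, changed by -0.64 ± 0.051, Spic, a factor tied to haem and iron handling, by -0.53 ± 0.048, and Id3 by 0.60 ± 0.052 (0.13 after quantile normalization). Nr1h3, which encodes liver X receptor alpha, changed by 0.01 ± 0.039 and did not pass (-0.46 after quantile normalization). Genes known from lipid-associated macrophages, cells that take up lipid and debris, rose in all 13 members, 10 of them at least 2-fold, with a median of 1.72, where 48.3% of all genes rose. Trem2, a receptor for lipids and dead cells, had levels of 5.57, 5.55, 5.62, 5.66 and 5.69 in wildtype and 8.18, 8.27, 8.21, 8.27 and 8.33 in NASH cells, a rise of 2.63 ± 0.037 without overlap. Gpnmb, a lysosomal membrane glycoprotein, rose by 3.16 ± 0.028, and Lgals3, a galectin, least of the list, by 0.58 ± 0.033.

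Genes of the signals that reach Kupffer cells from their neighbours went in both directions. Of 29 genes of TGF-beta, bone morphogenetic protein and activin signalling, 13 rose and 10 fell (median 0.05, -0.07 after quantile normalization). These shares lay near those of all genes, of which 48.3% rose and 28.5% fell. Bmpr1a, a type I receptor for bone morphogenetic proteins, had levels of -0.09, -0.03, -0.22, -0.08 and -0.17 in wildtype and -2.85, -3.07, -3.13, -2.61 and -2.58 in NASH cells. It was 6.63-fold lower in NASH cells (-2.73 ± 0.15, or -1.66 with normexp), with no overlap, and the ligand gene Bmp2, which sinusoidal endothelium expresses, also fell (-1.57 ± 0.06). Tgfbr1, the type I receptor for TGF-beta, rose by 1.42 ± 0.034 and the ligand gene Tgfb3 by 1.76 ± 0.049. Inhba, which encodes the activin A subunit, rose by 2.35 ± 0.18 (1.00 with normexp), with levels of -4.07, -5.07, -4.57, -3.95 and -4.68 against -2.13, -2.17, -2.44, -1.80 and -2.03, and was well above background on 2 wildtype and 5 NASH arrays. In the Notch list, 8 of 18 genes rose and 8 fell, to be set beside the same 48.3% and 28.5%. The target gene Hes1 fell (-0.99 ± 0.037), and the ligand gene Dll1, not well above background on any NASH array, was at least 1.62-fold lower, while the target gene Hey1 (1.36 ± 0.037) and Dtx4, a regulator of Notch traffic (1.72 ± 0.065), rose. Among growth factors, Vegfa (1.73 ± 0.048), Vegfc (1.54 ± 0.061) and Pdgfa (1.22 ± 0.052) rose at least 2-fold, and Flt1, a receptor for vascular endothelial growth factor, fell (-1.28 ± 0.042). Csf1, the growth factor itself, also fell (-0.75 ± 0.046).

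**Figure D2:**
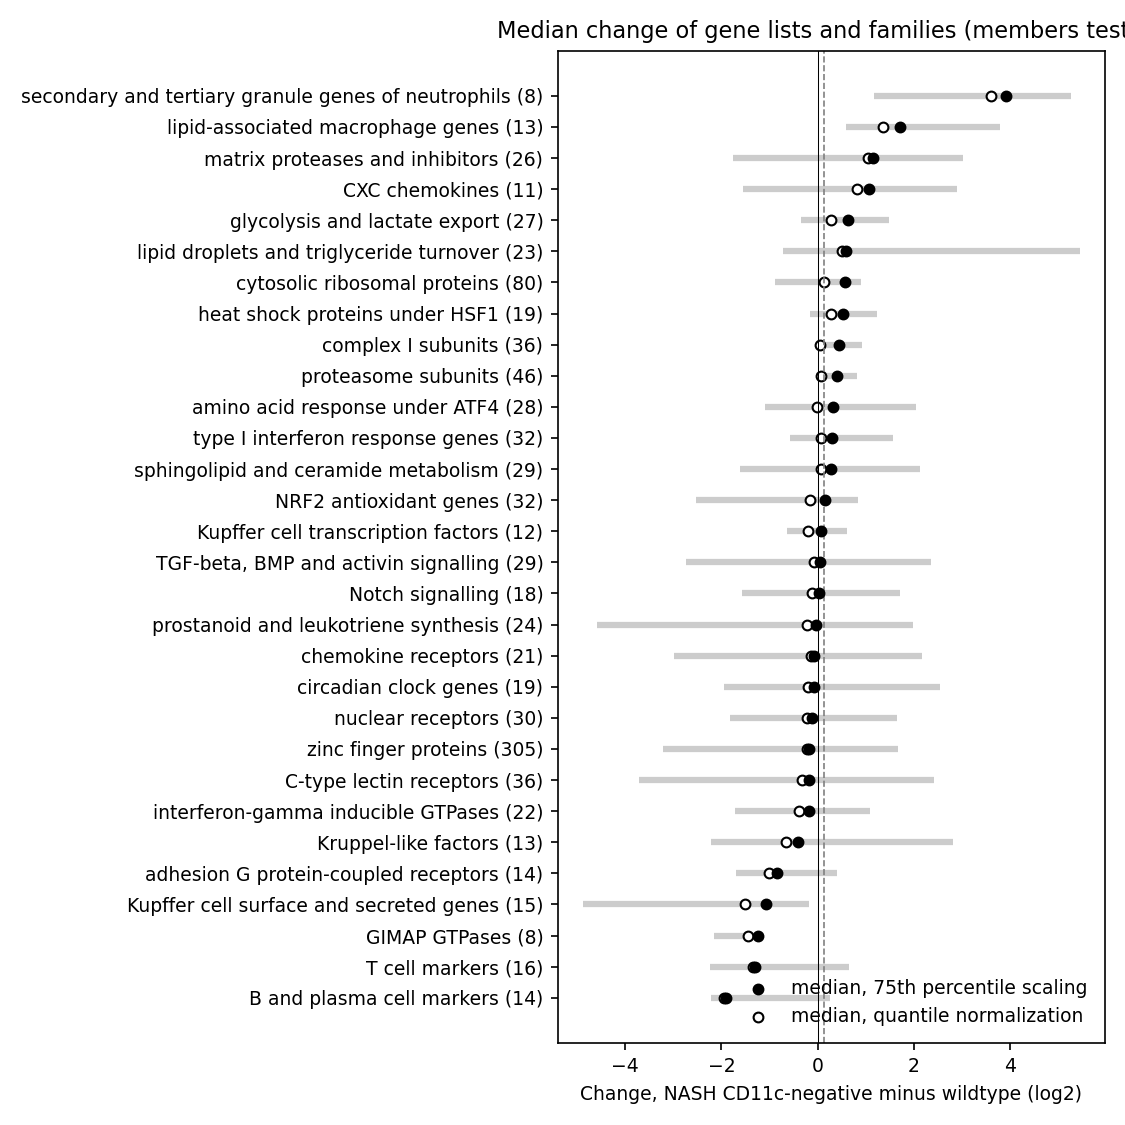
Median change of the tested members of 30 gene lists and families (log2, NASH CD11c-negative minus wildtype, x axis), with filled points for the scaling by the 75th percentile and open points after quantile normalization. Grey bars run from the lowest to the highest member, and the dashed line marks the median of all 13391 genes at 0.13. Among the lists drawn, secondary and tertiary granule genes of neutrophils lie farthest to the right, and B cell, T cell and GIMAP genes farthest to the left.

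The genes that make and sense lipid mediators changed widely. Of 24 genes of prostanoid and leukotriene synthesis, 11 rose and 11 fell, and the 5 that fell at least 2-fold were Ptgis, Pla2g2d, Alox15, Alox12 and Ltc4s. Ptgis, the synthase of prostacyclin, which widens vessels, had wildtype levels of 3.45, 3.48, 3.52, 3.62 and 3.67 and NASH levels of -1.05, -1.13, -1.08, -1.07 and -0.89. The difference of -4.59 ± 0.053, or 24.1-fold, was among the largest falls of all genes. Pla2g2d, a secreted phospholipase of resident macrophages and dendritic cells, changed by -3.11 ± 0.062 (-2.10 with normexp), and the lipoxygenase genes Alox15 (-2.17 ± 0.48, above background on 1 NASH array, -0.79 with normexp, and not passed on slide 2 alone) and Alox12 (-2.04 ± 0.12) fell as well. In the other direction moved Ptgs2, the inducible cyclooxygenase (1.09 ± 0.03), Hpgds, the blood cell synthase of prostaglandin D (1.06 ± 0.038), and Ptgr1, which inactivates prostaglandins and leukotriene B (1.98 ± 0.052). Ptgs1, the constitutive cyclooxygenase, changed by -0.61 ± 0.05. Receptors moved apart in the same way. Tbxa2r, the thromboxane receptor, fell (-2.67 ± 0.19), whereas Ptger4, a receptor for prostaglandin E (1.72 ± 0.067), and Ltb4r1, the receptor for leukotriene B (1.59 ± 0.041), rose. In the sphingolipid list 20 of 29 genes rose and 7 fell, where 48.3% of all genes rose and 28.5% fell. Sphk1, which makes sphingosine phosphate, rose by 2.12 ± 0.17 (1.17 with normexp), with levels of -3.44, -3.45, -3.55, -3.70 and -3.11 and -1.37, -1.43, -0.62, -1.48 and -1.77 in wildtype and NASH cells. Of its receptors, S1pr2 rose (1.57 ± 0.03) and S1pr5 fell (-1.92 ± 0.14, above background on 2 NASH arrays, -0.71 with normexp). The ceramide genes Cers4, a synthase (-1.61 ± 0.045), and Asah2, a neutral ceramidase (-1.19 ± 0.055), fell.

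Most genes of lipid storage rose. Of 23 genes of lipid droplets, 16 rose, 8 of them at least 2-fold, and 3 fell (median 0.59, 0.50 after quantile normalization). Of all genes 48.3% rose, 5.18% at least 2-fold, and 28.5% fell. Plin2, the main coat protein of droplets in macrophages, had levels of 5.16, 5.13, 5.18, 5.21 and 5.25 against 6.74, 6.78, 6.73, 6.85 and 6.87, a rise of 1.61 ± 0.035 without overlap. Agpat2, an enzyme of triglyceride and phospholipid assembly, rose by 1.65 ± 0.056 and Hilpda, an inhibitor of lipolysis, by 1.28 ± 0.046. Mogat2, a monoacylglycerol acyltransferase, was above background on no wildtype array and was at least 13.6-fold higher in NASH cells. Mgll, which breaks down monoacylglycerol, fell (-0.73 ± 0.048). Among genes of fatty acid synthesis the elongase genes moved in opposite directions, with Elovl7 higher (2.40 ± 0.19, above background on 1 wildtype array, 0.90 with normexp) and Elovl3 at least 2.47-fold lower (above background on no NASH array), and the core enzyme gene Acly changed by -0.10 ± 0.055 without passing, although it passed with the slide as a block (adjusted p = 0.000415, limma) and with the replicate block (adjusted p = 0.0234, limma). Of the 17 liver X receptor genes Ch25h, the enzyme that makes 25-hydroxycholesterol, rose most (1.42 ± 0.095). Pparg, a nuclear receptor that directs lipid uptake, rose by 1.65 ± 0.038, and its coactivator gene Ppargc1b, which drives mitochondrial oxidation, fell (-1.03 ± 0.082).

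Most genes of ribosomes, respiratory complexes and the proteasome rose by less than 2-fold. Of all genes 48.3% rose and 28.5% fell. Of 80 cytosolic ribosomal protein genes 78 rose, with a median of 0.56 that became 0.13 after quantile normalization, and the 2 that fell were the variant genes Rpl39l (-0.88 ± 0.081) and Rps4l (-0.78 ± 0.038). All 17 genes of ATP synthase (0.50, 0.13) and 35 of 36 genes of respiratory complex I (0.44, 0.04) rose, with medians under both scalings in that order. The same held for 75 of 77 mitochondrial ribosomal protein genes (0.45, 0.21) and 42 of 46 proteasome genes (0.41, 0.07). None of these 5 families had a member that changed at least 2-fold. Of 34 aminoacyl tRNA synthetase genes, which charge tRNAs for translation, 17 rose, a share near that of all genes, and 5 fell (median 0.14, 0.00). Of 54 translation initiation factor genes 41 rose and 7 fell (0.36, 0.12). Against these, 160 of 305 zinc finger protein genes fell and 49 rose, with a median of -0.17 (-0.22), led by Zfp354a, at least 3.03-fold lower with no NASH array above background, and Zfp239 (-2.82 ± 0.21, above background on 2 NASH arrays, -1.24 with normexp).

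Most genes of glycolysis rose, where 48.3% of all genes did. Of 27 genes of glycolysis and lactate export 19 rose, 4 at least 2-fold, and 2 fell, with a median of 0.64 (0.27 after quantile normalization). The 4 were Eno2, an enolase (1.49 ± 0.12, but 0.76 and so under 2-fold with normexp), Ldhb, a lactate dehydrogenase (1.13 ± 0.046), Pfkfb4, a regulator of phosphofructokinase (1.11 ± 0.038), and Slc16a3, the lactate exporter (1.10 ± 0.038). The tricarboxylic acid cycle had a median of 0.25 (0.01), with Acod1, the itaconate-forming enzyme of activated macrophages, at the top (0.66 ± 0.039). In serine and one-carbon metabolism, Psat1 rose (1.13 ± 0.022) but the opening enzyme of the same pathway, Phgdh (-0.82 ± 0.083), and the glycine decarboxylase gene Gldc (-1.60 ± 0.059, above background on 3 NASH arrays, -0.69 with normexp) fell. Cox6a2, a subunit of cytochrome oxidase known from muscle, rose by 1.96 ± 0.06 while the median of 24 genes of complexes III and IV was 0.48. Among amino acid transporters Slc7a2, which takes up arginine, rose (1.56 ± 0.10), and the glutamate transporter gene Slc1a2 fell (-1.83 ± 0.052). Arg1, arginase, fell as well (-1.05 ± 0.064).

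Stress genes were divided within their own lists. The amino acid response, driven by the factor ATF4, had 19 genes higher and 4 lower of 28, where 48.3% of all genes rose and 28.5% fell. Atf3, a stress-induced repressor, was found at 5.07, 5.05, 5.09, 5.17 and 5.13 in wildtype and 6.90, 6.86, 6.81, 6.96 and 6.93 in NASH cells, and Asns, asparagine synthetase, at -0.94, -0.94, -0.97, -0.80 and -0.86 and 0.55, 0.47, 0.51, 0.55 and 0.62. Chac1, which degrades glutathione, went the other way, from -0.89, -0.97, -0.93, -0.78 and -0.87 to -1.86, -2.05, -2.06, -2.04 and -1.93. The changes were 1.79 ± 0.036, 1.44 ± 0.036 and -1.10 ± 0.049, each without overlap between the groups. All 3 genes carry the letters TGATGNAA, the composite site of CHOP and ATF4, in the 250 bases before their start, as did 7 of 24 list members with a promoter sequence (29.2%) and 2.75% of 10701 tested genes with one. The sequences are shown because genes with the same letters moved in opposite directions. They are from RefSeq (build GRCm38.p6), read 5′ to 3′ on the strand of the gene, with the matches on either strand in capitals. Atf3 lies at chr1:191183334-191183583 (reverse strand), Asns at chr6:7693210-7693459 (reverse strand) and Chac1 at chr2:119350992-119351241 (forward strand).
Atf3: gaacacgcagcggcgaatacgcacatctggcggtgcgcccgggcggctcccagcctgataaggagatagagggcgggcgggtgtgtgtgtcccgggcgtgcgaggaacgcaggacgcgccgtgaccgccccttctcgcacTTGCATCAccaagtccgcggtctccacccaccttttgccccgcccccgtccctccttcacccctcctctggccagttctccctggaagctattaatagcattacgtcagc
Asns: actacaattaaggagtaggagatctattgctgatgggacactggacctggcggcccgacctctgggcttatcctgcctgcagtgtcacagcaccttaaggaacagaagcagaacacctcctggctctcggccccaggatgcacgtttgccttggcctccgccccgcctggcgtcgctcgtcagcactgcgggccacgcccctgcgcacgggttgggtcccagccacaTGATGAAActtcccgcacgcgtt
Chac1: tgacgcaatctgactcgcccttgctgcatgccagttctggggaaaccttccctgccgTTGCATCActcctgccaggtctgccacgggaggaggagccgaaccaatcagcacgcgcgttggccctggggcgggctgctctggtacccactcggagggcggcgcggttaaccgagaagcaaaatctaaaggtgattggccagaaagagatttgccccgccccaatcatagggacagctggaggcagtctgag
Outside these promoters, Gdf15, a stress-induced cytokine that lowers appetite, rose most in the list (2.05 ± 0.03).

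Heat shock genes rose without exception among those that passed, 17 of 19, with Hsph1, a co-chaperone of HSP70, at 1.24 ± 0.038 and a median of 0.53 (0.28 after quantile normalization). The heat shock element (GAA, TTC and GAA, each 2 bases apart, on either strand) was present in 3 of 14 of their promoters, against 0.43% of all. The promoter windows of Hspd1 and Hspe1, among the 3, overlap on opposite strands, so the same stretch is counted for both genes. Genes of the antioxidant factor NRF2 were split, with 17 higher and 12 lower of 32 and a median that changed sign with the scaling (0.15, -0.15). Of all genes 48.3% rose and 28.5% fell. Gsta4, a glutathione transferase for lipid peroxidation products, was at least 2.15-fold lower and not well above background on any NASH array. Hmox1, the haem-degrading oxygenase, fell (-0.76 ± 0.033), and Prdx6, a peroxiredoxin, rose (0.84 ± 0.038). Mgst2, a microsomal transferase outside that list, rose by 2.20 ± 0.042. Of 24 immediate early genes 19 rose, while 4 fell. Maff, a small MAF partner (2.06 ± 0.033), and Egr2, a factor of activated macrophages (1.99 ± 0.04), rose at least 2-fold, and Klf4 (-0.90 ± 0.025) and Klf2 (-0.46 ± 0.021) fell. Feedback inhibitors of NF-kB were raised, with Tnip3 at 1.86 ± 0.084, Tnfaip3, a ubiquitin-editing enzyme, at 1.71 ± 0.028 and Nfkbia at 1.04 ± 0.035, while Tnfaip2 fell (-0.61 ± 0.058).

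The genes of the circadian clock changed in both directions, although no hour of collection is stated for either group. Of 19 clock genes 6 rose, 8 fell and 5 did not pass, where 48.3% of all genes rose and 28.5% fell. Nr1d1, the repressor REV-ERB alpha, had levels of -1.39, -1.24, -1.33, -1.38 and -1.23 in wildtype and -2.85, -2.80, -3.42, -3.51 and -3.12 in NASH cells. It was lower on every NASH array (-1.83 ± 0.12, or -0.87 with normexp), and Per3 (-1.94 ± 0.32, above background on 1 NASH array, -0.42 with normexp and -2.58 on slide 2 alone), Nr1d2 (-1.13 ± 0.061), Dbp (-0.86 ± 0.051) and Tef (-0.80 ± 0.032) fell with it. Nfil3, a repressor that competes with DBP and TEF for the same sites, had levels of 2.03, 1.92, 2.06, 1.97 and 1.98 against 4.58, 4.59, 4.46, 4.54 and 4.57. It rose by 2.55 ± 0.032 without overlap. Per1 rose (0.73 ± 0.046), whereas the activators Arntl (-0.12 ± 0.031) and Clock (-0.08 ± 0.052, not passed) moved little. The E-box CACGTG, to which CLOCK and its partner bind, was found before the start of 4 of 15 clock genes with a promoter sequence (26.7%), against 9.46% of all. Per1 (higher) and Tef (lower) are shown as a pair that share it, at chr11:69098699-69098948 (forward strand) and chr15:81802423-81802672 (forward strand).
Per1: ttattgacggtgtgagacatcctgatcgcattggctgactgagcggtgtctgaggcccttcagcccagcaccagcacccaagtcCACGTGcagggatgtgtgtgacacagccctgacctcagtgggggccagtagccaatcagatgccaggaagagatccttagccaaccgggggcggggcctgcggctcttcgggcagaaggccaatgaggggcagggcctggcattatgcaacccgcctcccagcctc
Tef: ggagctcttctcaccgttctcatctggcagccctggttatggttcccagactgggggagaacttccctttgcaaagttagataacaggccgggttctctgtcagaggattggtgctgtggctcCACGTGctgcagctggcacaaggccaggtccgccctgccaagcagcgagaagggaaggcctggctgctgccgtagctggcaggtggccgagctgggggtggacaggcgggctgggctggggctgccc

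Other transcription factor families also shifted. Of 30 nuclear receptor genes 14 fell and 10 rose, with 7 lower and 1 higher by at least 2-fold. Of all genes 28.5% fell and 48.3% rose, 6.22% and 5.18% by at least 2-fold. Besides the REV-ERB genes, Rarb, a retinoic acid receptor (-1.34 ± 0.066), and the thyroid hormone receptor genes Thra (-1.21 ± 0.045) and Thrb (-1.19 ± 0.073) fell. Cyp26b1, which degrades retinoic acid, fell by 2.41 (SE 0.044). Among 13 Kruppel-like factor genes 9 fell, led by Klf15, a glucocorticoid-induced factor that was at least 1.97-fold lower with no NASH array well above background. Klf5 was at least 2.15-fold higher, with no wildtype and 4 NASH arrays well above background. Irf4, a factor of lymphocytes and dendritic cells, fell (-1.72 ± 0.062). Cebpe, a factor of late granulocyte development, rose by 4.21 ± 0.06 with the granule genes described below.

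**Figure D3:**
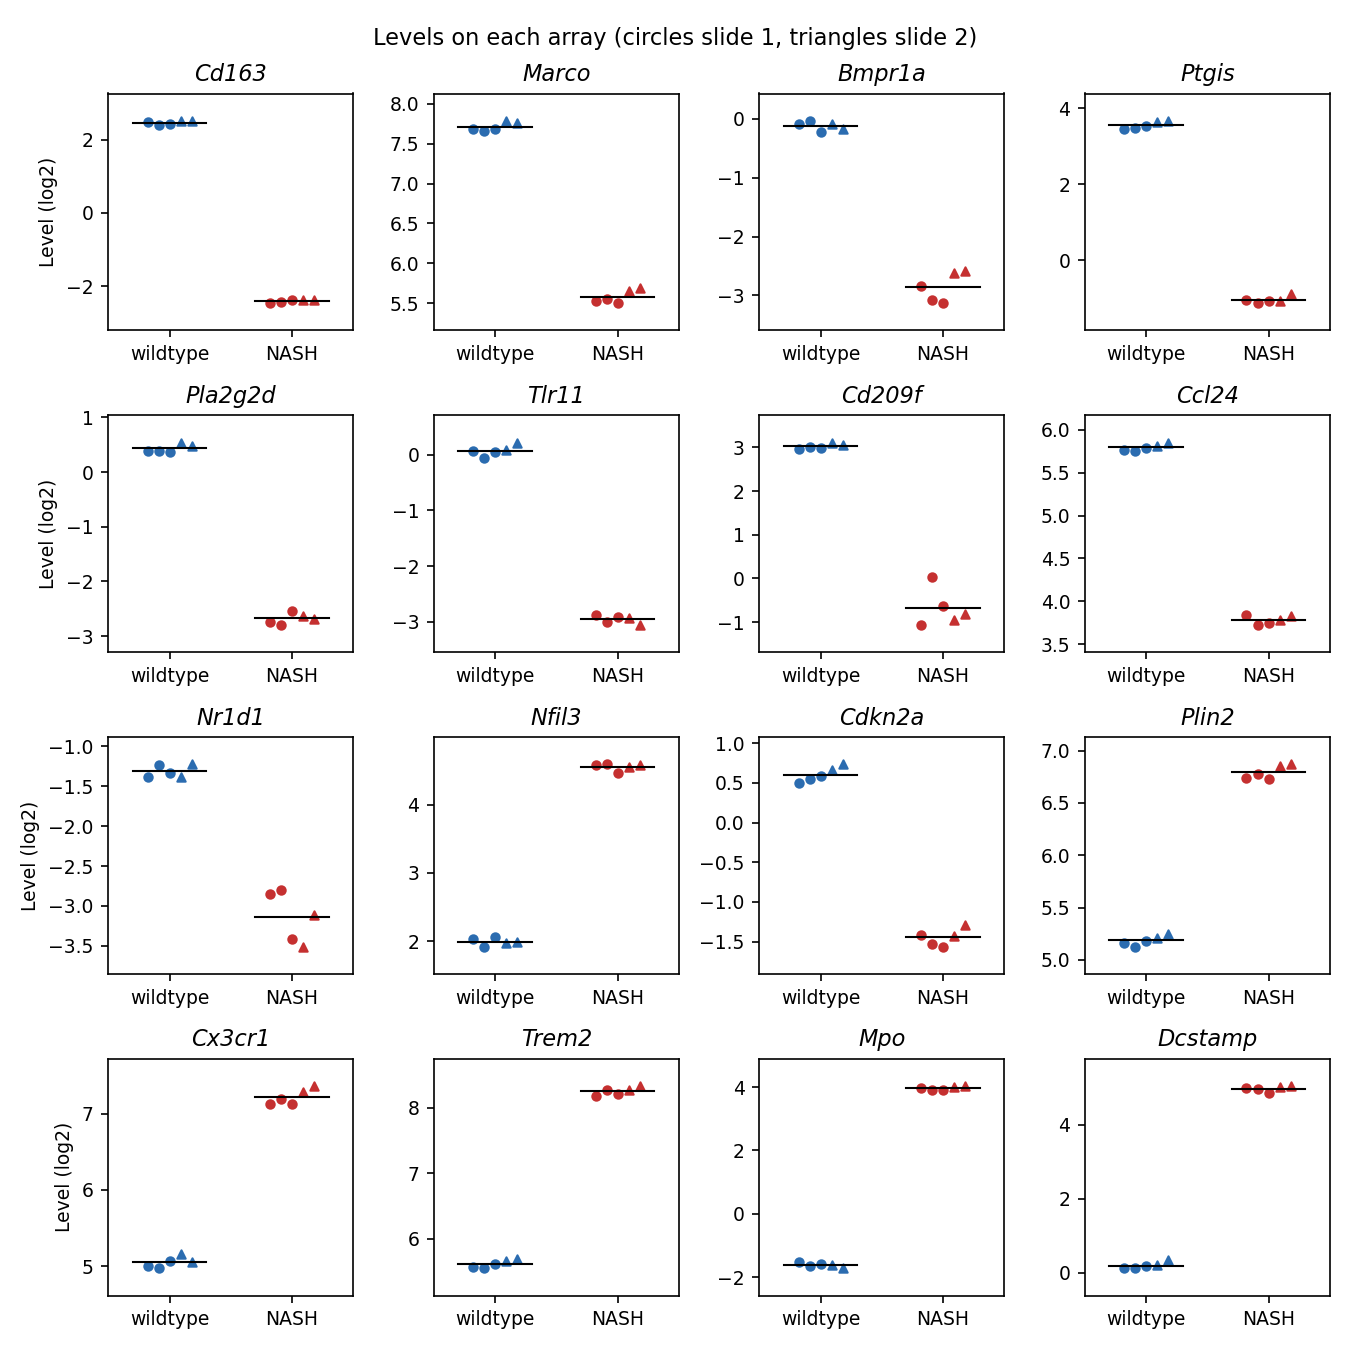
Levels of 16 genes on each of the 10 arrays (log2 relative to the array's 75th percentile, y axis), with wildtype arrays in blue and NASH CD11c-negative arrays in red, circles for slide 1 and triangles for slide 2, and a line at each group mean. For each of the 16 genes the arrays of the 2 groups do not overlap on either slide.

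Receptors of innate immunity moved in opposite directions within families. Among 11 Toll-like receptor genes, Tlr11, which senses profilin and flagellin in mice, was measured at 0.06, -0.06, 0.06, 0.09 and 0.22 in wildtype and -2.88, -3.01, -2.92, -2.94 and -3.06 in NASH cells. It changed by -3.03 ± 0.051 (-1.83 with normexp), and Tlr1 (1.28 ± 0.038) and its partner Tlr2 (1.15 ± 0.037) rose. Of 36 C-type lectin genes 19 fell and 13 rose, where 28.5% of all genes fell and 48.3% rose. The CD209 family, lectins for mannose-rich glycans, fell in all 6 measured members, led by Cd209f with levels of 2.97, 3.00, 2.99, 3.11 and 3.05 against -1.06, 0.03, -0.62, -0.96 and -0.82. That is a 13.1-fold difference with no overlap. Olr1, the receptor for oxidized low-density lipoprotein (2.42 ± 0.25, above background on 1 wildtype array, 0.75 with normexp and 3.30 on slide 2 alone), Clec5a, a receptor of inflammatory myeloid cells (1.84 ± 0.19, also on 1, 0.51 with normexp), and Clec4e, a receptor for microbial glycolipids and dead cells (1.82 ± 0.064), rose. Ms4a7, a membrane protein of macrophages, rose by 2.29 ± 0.036, and Ms4a8a, another family member, fell by 1.52 (SE 0.031). In the CD300 family Cd300e fell (-1.34 ± 0.055) and Cd300ld4 rose (1.65 ± 0.049). Of 9 paired immunoglobulin-like receptors 7 fell and none rose, with Pira2 (-1.75 ± 0.038) and Lilra6 (-1.43 ± 0.047) at least 2-fold lower. These genes have close copies, and probes can be shared between them. Adhesion G protein-coupled receptors fell in 12 of 14 cases (median -0.84), with Adgrg1, a receptor of cytotoxic lymphocytes, at -1.65 ± 0.039 and Adgre1, encoding F4/80, as the 1 member higher.

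Interferon genes changed in both directions. Of 32 genes of the type I response 23 rose and 6 fell, with a median of 0.29 (0.08 after quantile normalization). Among 22 genes of the interferon-gamma list, mostly GTPases that attack vacuoles of pathogens, 12 fell and 8 rose (median -0.18, -0.39). Of all genes 48.3% rose and 28.5% fell. Isg15, a ubiquitin-like modifier, was at 5.14, 5.19, 5.08, 5.15 and 5.12 in wildtype and 5.88, 5.86, 5.82, 5.98 and 5.94 in NASH cells, a rise of 0.76 ± 0.034. Stat2, which carries the type I signal to the nucleus, was at 4.25, 4.22, 4.27, 4.37 and 4.37 and 3.98, 3.98, 3.87, 4.08 and 4.08, and fell by 0.30 (SE 0.045). Ifi44 was the 1 type I gene at least 2-fold higher (1.57 ± 0.042). Gbp4 (-1.71 ± 0.03) and Gbp7 (-1.07 ± 0.048), guanylate-binding proteins, fell, while Gbp2 (0.73 ± 0.043) and the chemokine gene Cxcl9 (1.09 ± 0.088) rose. The interferon-stimulated response element (TTTC and TTTC, 2 bases apart, on either strand) lay before the start of 8 of 25 type I genes with a promoter sequence (32%), against 3.41% of all. Isg15, at chr4:156200819-156201068 (reverse strand), and Stat2, at chr10:128270248-128270497 (forward strand), both hold it and are printed because they changed in opposite directions.
Isg15: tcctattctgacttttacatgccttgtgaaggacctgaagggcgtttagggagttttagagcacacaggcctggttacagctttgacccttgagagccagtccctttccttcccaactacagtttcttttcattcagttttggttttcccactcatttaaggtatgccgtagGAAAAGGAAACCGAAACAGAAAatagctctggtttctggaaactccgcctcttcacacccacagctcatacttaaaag
Stat2: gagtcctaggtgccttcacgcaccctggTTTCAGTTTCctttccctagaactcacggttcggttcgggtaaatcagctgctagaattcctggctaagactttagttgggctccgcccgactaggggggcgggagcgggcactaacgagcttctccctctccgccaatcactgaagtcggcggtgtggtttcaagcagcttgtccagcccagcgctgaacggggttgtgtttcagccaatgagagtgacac
Inflammasome genes showed no common direction, with 10 higher and 8 lower of 25, beside 48.3% and 28.5% of all genes. Nlrp3 changed by -0.04 ± 0.11 (0.02 after quantile normalization) and did not pass, and the sensors Naip1 (-1.39 ± 0.085) and Nlrp1b (-1.17 ± 0.049) fell at least 2-fold.

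Genes of chemokine ligands and of their receptors changed in both directions. Of 11 CXC ligand genes 10 rose, 6 at least 2-fold, and of 16 CC ligand genes 9 rose and 3 fell, where 48.3% of all genes rose. Cxcl3, a ligand that attracts neutrophils, was at least 2.45-fold higher, with no wildtype array well above background. Cxcl13, which attracts B cells, was the 1 CXC gene that fell (-1.56 ± 0.028). Ccl9 rose from 3.82, 3.77, 3.85, 3.95 and 3.94 to 6.54, 6.60, 6.52, 6.66 and 6.69, and Ccl24, an attractant of eosinophils, went from 5.77, 5.75, 5.79, 5.81 and 5.85 to 3.83, 3.72, 3.75, 3.78 and 3.83. The groups overlapped for neither gene, with changes of 2.73 ± 0.043 and -2.01 ± 0.034. Ccl17, a ligand made by dendritic cells and macrophages, fell further (-3.26 ± 0.20). Of 21 receptor genes 7 rose and 8 fell by 2-fold or more, as 5.18% and 6.22% of all genes did. Cx3cr1, the fractalkine receptor of monocytes and of some tissue macrophages, had levels of 5.01, 4.97, 5.08, 5.16 and 5.05 in wildtype and 7.13, 7.20, 7.13, 7.28 and 7.36 in NASH cells, a rise of 2.17 ± 0.049. Ccr2, the receptor that brings monocytes out of the marrow, rose by 1.74 ± 0.034 and Cxcr4 by 1.75 ± 0.043. Ccr2 and Cx3cr1 belong to the list of monocyte and recruited macrophage genes, in which 8 of 12 measured members rose, 3 of them at least 2-fold, and 2 fell, Plac8 (-0.22 ± 0.039) and the integrin gene Itgam (-0.21 ± 0.027 on its brightest probe, 0.38 as the mean of its probes), with a median of 0.38. The largest rise of that list, 3.33, was that of a gene also counted among the secondary granule genes of neutrophils below. The receptors that fell most were Xcr1 of cross-presenting dendritic cells (at least 2.51-fold, above background on no NASH array), Cxcr5 of B cells (-2.36 ± 0.089) and the scavenging receptor gene Ackr4 (-2.35 ± 0.16, above background on 2 NASH arrays, -1.07 with normexp). Markers of those cell types fell in the same samples, as given below, and their part in these changes was not tested.

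Other signalling genes followed no single direction. Tnfsf18, a TNF family ligand for the receptor GITR, rose by 2.98 ± 0.078 (above background on 3 wildtype arrays, 1.61 with normexp) and Fasl, a ligand of cytotoxic lymphocytes, fell (-1.10 ± 0.10). Il1rn, the secreted antagonist of interleukin 1, rose by 2.10 ± 0.057 from levels of -1.45, -1.38, -1.32, -1.36 and -1.16 to 0.75, 0.73, 0.61, 0.90 and 0.83. The receptor genes Il21r (1.79 ± 0.035) and Tnfrsf12a (1.47 ± 0.043) rose. For nucleotides, P2ry2, a receptor for ATP and UTP (2.16 ± 0.07), and Adora2b, a low-affinity adenosine receptor (1.84 ± 0.062), rose, and P2ry10 fell (-1.50 ± 0.041). Among 31 potassium channel genes 7 were at least 2-fold higher, led by the calcium-activated channel Kcnn4 (2.38 ± 0.046), and 5 at least 2-fold lower, among them Kcnq1 (-1.99 ± 0.11). Of all genes 5.18% were that much higher and 6.22% that much lower. Hvcn1, the proton channel that supports the oxidative burst, rose by 1.94 ± 0.029, while the oxidase subunit gene Cybb changed by 0.64 ± 0.041.

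Genes that cut extracellular matrix, and the inhibitors of that cutting, changed in both directions. Of 26 matrix proteases and inhibitors 19 rose, 14 of them at least 2-fold where 5.18% of all genes did so, and 5 fell (median 1.16, 1.05 after quantile normalization). Mmp12, the elastase of macrophages, was at -0.46, 0.54, -0.65, -0.52 and -0.64 in wildtype and 1.91, 1.91, 1.95, 2.16 and 2.01 in NASH cells. It rose without overlap, by 2.33 ± 0.18. Mmp14, a membrane-bound collagenase (1.76 ± 0.061), and Mmp2, the gelatinase it activates (1.71 ± 0.055), also rose, as did the protease gene Adam15 (1.65 ± 0.038). In the other direction went Timp3, an inhibitor bound to matrix (-1.09 ± 0.04), and Serpinb2 (-1.76 ± 0.40, above background on 3 NASH arrays, -0.76 with normexp, and not passed on slide 1 alone). Col1a1 (1.41 ± 0.082) and Col3a1 (1.18 ± 0.043), collagens made by stellate cells and fibroblasts, rose too, while the stellate cell gene Lrat fell (-1.05 ± 0.21, above background on 3 NASH arrays, -0.38 with normexp). Of 16 stellate cell and fibroblast markers 13 were measured, and 8 rose, and their summed level was 5.19 to 5.30 in wildtype and 5.22 to 5.31 in NASH cells. Their part in the matrix genes was not tested.

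Adhesion, vesicle and cytoskeleton genes changed member by member. Cd63, a tetraspanin of lysosomes and exosomes, had levels of 4.78, 4.81, 4.77, 4.88 and 4.87 on the wildtype arrays and between 7.99 and 8.04 on the 5 NASH arrays, and Cd9, another tetraspanin, 3.73, 3.69, 3.73, 3.70 and 3.67 against 6.18, 6.18, 6.17, 6.24 and 6.25. Their rises of 3.19 ± 0.029 and 2.50 ± 0.022 stood beside falls of Tspan18 (-1.85 ± 0.055) and Tspan2 (-1.27 ± 0.071). Among integrins Itga6, a laminin receptor chain, rose (1.95 ± 0.035), and Itgb7, a chain of gut-homing lymphocytes, fell (-1.74 ± 0.028). Of 34 actin and podosome genes 30 rose and 4 fell (median 0.38, 0.02), where 48.3% of all genes rose and 28.5% fell. The motor genes Myo1e (2.04 ± 0.029) and Myo5a (1.86 ± 0.048) and the severing protein gene Gsn (1.51 ± 0.03) changed most. Of 21 genes of the vacuolar proton pump 18 rose, but Atp6v0d2, a subunit of fused macrophages and osteoclasts, stood apart with 2.49 ± 0.048 against a median of 0.42. Lysosomal genes had a median of 0.29 (0.05), and the E-box CACGTG was found before 11 of 34 of them (32.4%), against 9.46% of all. Of 51 Rab GTPase genes, which direct vesicles, 31 rose and 12 fell, with a median of 0.24 (-0.02), against 48.3% and 28.5% of all genes. Rab4a, a small GTPase of early recycling endosomes, fell by 3.11 (SE 0.12), and Rab6b fell by 2.70 (SE 0.077).

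Growth genes rose by small amounts. In DNA replication 26 of 33 genes rose (median 0.34, 0.22 after quantile normalization), and in mitosis 20 of 28 did (0.23, 0.19), where 48.3% of all genes rose. Inhibitors of the cycle went apart. Cdkn2a, which encodes p16 and ARF, was measured at 0.49, 0.54, 0.58, 0.66 and 0.73 in wildtype and -1.42, -1.53, -1.56, -1.43 and -1.29 in NASH cells, and fell by 2.05 (SE 0.097) with its neighbour Cdkn2b (-1.09 ± 0.07). Cdkn1a, the p53 target p21 (1.51 ± 0.053), and Gadd45b (1.86 ± 0.039) rose.

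Granule genes of neutrophils were among the largest rises. All 5 primary granule genes, which are transcribed in neutrophil precursors of the marrow, rose, by 1.22 to 5.58 with a median of 5.05. The 8 measured genes of secondary and tertiary granules, made at a later stage, rose with a median of 3.91. Of 11 genes of mature neutrophils 10 rose and 1 fell, with a median of 1.81. Of all genes 48.3% rose and 28.5% fell. Mpo, myeloperoxidase, had levels of -1.52, -1.64, -1.59, -1.61 and -1.73 in wildtype and 3.96, 3.90, 3.92, 4.02 and 4.03 in NASH cells. The groups lay 47.8-fold apart (5.58 ± 0.038, or 4.98 with normexp). Camp, the cathelicidin precursor of secondary granules, had 2.04, 2.01, 2.00, 2.12 and 2.16 and 7.21, 7.20, 7.22, 7.30 and 7.35, or a 36.4-fold difference. S100a8, a subunit of calprotectin that monocytes also make, rose by 2.64 ± 0.04 and Cxcr2, the chemokine receptor of circulating neutrophils, by 0.82 ± 0.05. Csf3r, the receptor for the granulocyte growth factor, was the mature gene that fell (-0.40 ± 0.027). The summed level of the primary list ran from 2.40 to 2.72 in wildtype and from 5.12 to 5.21 in NASH cells, that of the secondary list from 4.59 to 4.69 and from 8.94 to 9.07, and that of the mature list from 8.68 to 8.74 and from 10.30 to 10.43. Lcn2, Mmp8 and Cebpe, which also count in families above, are genes of these lists or of the same cells, and the part of neutrophil cells in their rises was not tested.

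**Figure D4:**
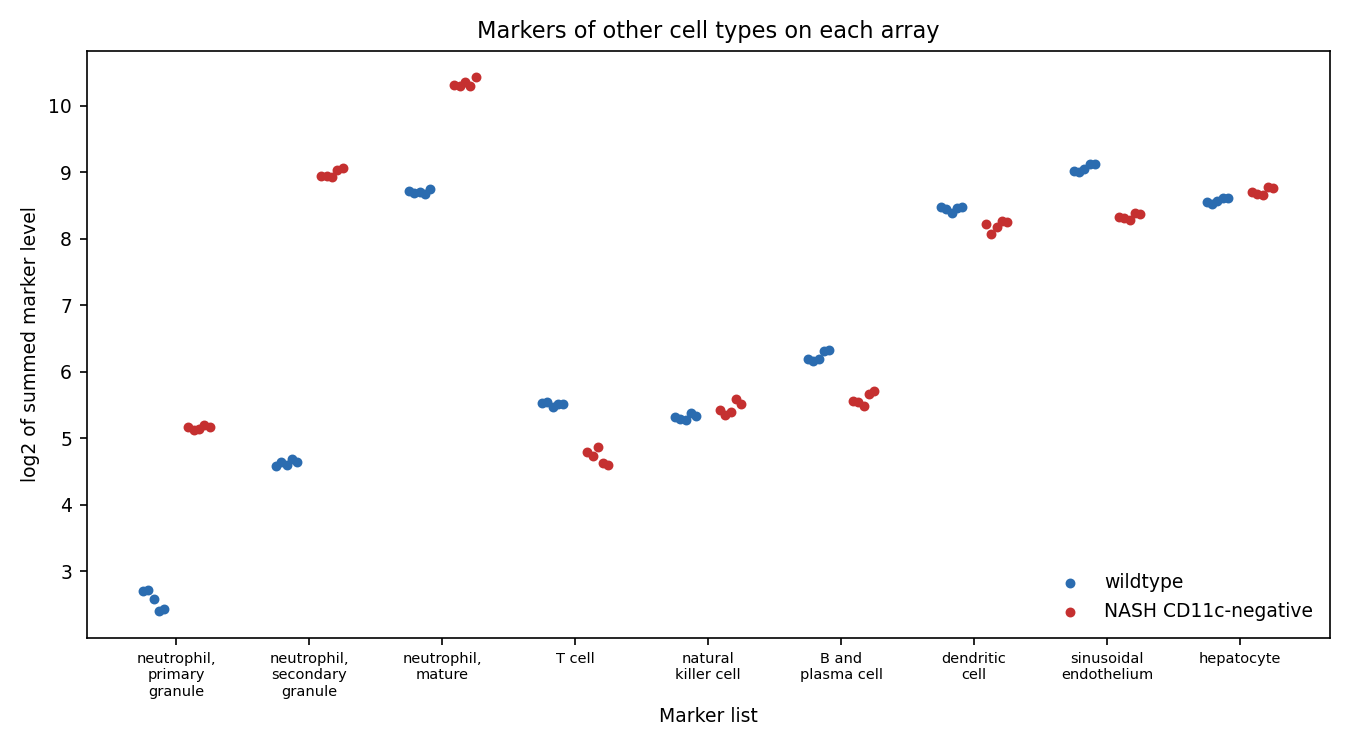
Log2 of the summed level of the measured markers in 9 lists of other cell types on each of the 10 arrays (log2 relative to the array's 75th percentile, y axis), with 5 wildtype arrays in blue and 5 NASH CD11c-negative arrays in red. The neutrophil lists lie higher and the T cell, B cell and endothelial lists lower on every NASH array, and the hepatocyte list runs from 8.52 to 8.62 in wildtype and from 8.66 to 8.78 in NASH cells.

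Most markers of lymphocytes, dendritic cells and endothelium fell, where 28.5% of all genes did. Of 18 T cell markers 16 were measured, and 14 fell (median -1.30, summed level 5.47 to 5.54 in wildtype and 4.60 to 4.87 in NASH cells), and Cd3e, a chain of the T cell receptor complex, changed by -0.07 ± 0.12 and did not pass. Of 15 B and plasma cell markers 14 were measured, and 12 fell (median -1.90, summed level 6.16 to 6.32 and 5.48 to 5.71). Natural killer markers fell in 9 of 14 cases, yet their summed level was 5.28 to 5.38 in wildtype and 5.35 to 5.59 in NASH cells, and Klra8 rose (1.59 ± 0.028). Dendritic cell markers fell in 13 of 15 cases, led by Flt3, the growth factor receptor of these cells, with levels of 1.34, 1.31, 1.33, 1.44 and 1.38 and -1.82, -1.79, -1.96, -1.71 and -1.63 (-3.14 ± 0.054, or -2.45 with normexp). All 20 endothelial markers were measured, and 16 fell (summed level 9.01 to 9.13 and 8.28 to 8.38), with Ehd3 at -2.19 ± 0.038 and Stab2, a hyaluronan receptor, at -0.90 ± 0.032. All 8 GIMAP GTPase genes, which lymphocytes and endothelial cells express, fell at least 2-fold, led by Gimap3 (-2.16 ± 0.046). Of 21 hepatocyte markers 19 were measured, 10 fell and 5 rose (median -0.29), yet their summed level was 8.52 to 8.62 in wildtype and 8.66 to 8.78 in NASH cells, with Alb, albumin, lower (-1.19 ± 0.045) and Hp, haptoglobin, higher (1.73 ± 0.041). Cyp2f2 (-2.89 ± 0.097), a liver cytochrome gene, moved with Alb. The part of each of these cell types in the falls named above, among them Cxcr5, Xcr1 and Bmp2, was not tested. The same holds for the markers Ccr7 and Ms4a1, whose changes are not given here.

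Further single genes were among the largest changes. Dcstamp, needed for the fusion of macrophages and osteoclasts, had levels of 0.12, 0.12, 0.17, 0.20 and 0.34 in wildtype and 5.00, 4.97, 4.88, 5.03 and 5.05 in NASH cells. The 27.8-fold difference (4.80 ± 0.044) had no overlap. Dpys, dihydropyrimidinase (4.44 ± 0.074), Emp1, a membrane protein of epithelia (3.92 ± 0.036), Tmem171 (3.59 ± 0.081) and Wfdc21 (3.87 ± 0.026) rose, as did the aspartic protease gene Ctse (4.66 ± 0.031) and Spp1, osteopontin (3.78 ± 0.044). Falls of like size were those of Btla, an inhibitory receptor of lymphocytes (-3.28 ± 0.052), Raver2 (-3.27 ± 0.19), Dtx1, a regulator of Notch (-2.94 ± 0.27), Nid2, a basement membrane protein (-2.90 ± 0.079), and Fcna, a ficolin of resident macrophages that recognises sugars (-2.86 ± 0.027). Genes measured in only 1 group have a bound. Prok2, a secreted prokineticin, was at least 10.2-fold higher and Tuba8, a tubulin, at least 7.59-fold higher in NASH cells, with no wildtype array well above background. Adra2c, an adrenergic receptor, was at least 11.9-fold lower, Slc27a6, a fatty acid transporter, at least 6.48-fold lower and Mycl, a MYC family factor of dendritic cells, at least 6.22-fold lower, with no NASH array well above background.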

How the data were processed

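Gene expression was measured on 15 one-colour Agilent arrays (Cy3), 5 in each group, with groups and replicate numbers from the sample titles. Per the file headers, Agilent Feature Extraction 10.7.3.1 made the deposited spot intensities, whose processed signal is background-subtracted, and a flag for spots well above background. The deposited table of log2 values was compared with the scanner signals. It holds the log2 processed signal scaled to the 75th percentile of each array and centred per probe, with a median absolute difference of 0.00146 once that centre is removed. The array medians of that table lay between -0.204 and 0.408, and how each centre was chosen stays unknown.

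Here control spots and outlier spots were left out (113 to 179 outlier spots an array), no spot was saturated, spots of a probe were averaged, and the 75th percentile of each array was subtracted from the log2 signal. Accessions named 26582 of 55681 probes through RefSeq tables (GRCm38.p6). The kept probe with the highest mean over all 15 arrays stood for a gene, and 32 genes had probes that disagreed in direction. All 15 arrays were fitted with limma 3.58.1 in R 4.3.3 (group means, eBayes, Benjamini-Hochberg adjustment). The steps were tested on simulated data: of 100 genes changed by 1 and 100 changed by 2 on the log2 scale among 13391, 95 and 100 were recovered with 10 false calls. That simulation changed far fewer genes than the 76.8% that passed here, and its independent noise was added after scaling. Its recovery and false calls therefore do not carry over to the calls above.

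The comparison, its 55 lists and 63 symbol families were chosen with earlier results of these data known. Named genes were, without predicted genes and receptor segments, the 15 largest rises and 15 largest falls measured in both groups, the 5 largest bounds each way, each list's anchor members, 4 largest changes and 2 largest in the opposite direction, and each family's 3 largest rises and falls. Acly, Clec1b, Clock, Hilpda, Hpgds, Ltc4s, Mmp14, Mmp2, Stat2, Tef and Thrb were named after their values were seen. A summed level is log2 of the sum of the unlogged levels of a list's measured members. Motifs were searched on both strands of the 250 bases before a gene's start, in 8 pairs of motif and list. Those not described above were 3 pairs. The sterol response element was in 0 of 16 promoters of sterol synthesis genes (0.0654% of all). The antioxidant response element core was in 8 of 27 of the NRF2 list (29.6%, against 13.6% of all). The cyclic AMP response element was in 3 of 20 of the immediate early list (15%, against 2.85%). The alternatives were normexp (offset 50), quantile normalization, other filters, slide and replicate blocks, each slide alone, other probe, prior and weight choices, the deposited table and each array left out. The rule gives 652 genes, of which 206 are named in the text and the others are not described here.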

Additional observations from a re-analysis of the deposited data

Results flagged for a closer look

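For the genes named in the report, the array farthest from the other 4 of its group was compared with Dixon's 95% critical value for 5 samples (0.71), as the gap to the nearest array over the range of the group. Of 434 groups of 5 arrays, 20 exceeded it. Chance alone marks about 1 in 20 groups. Mmp12 stood at 0.54 on wildtype replicate 2 against -0.65 to -0.46 on the other 4 arrays (ratio 0.836). Ccl17 stood at -1.56 on NASH replicate 2 against -2.98 to -2.68 on the other 4 arrays (ratio 0.788). Raver2 stood at -0.57 on NASH replicate 1 against -1.88 to -1.58 on the other 4 arrays (ratio 0.773). Alox15 stood at -1.75 on wildtype replicate 3 against -2.60 to -2.47 on the other 4 arrays (ratio 0.85). Olr1 stood at -3.07 on NASH replicate 2 against -2.54 to -2.41 on the other 4 arrays (ratio 0.807). Clec5a stood at -3.39 on NASH replicate 2 against -2.96 to -2.84 on the other 4 arrays (ratio 0.789). The remaining cases spanned less than these on the log2 scale. Among wildtype arrays they were Ctse (replicate 5, level -2.28, ratio 0.73), Fasl (replicate 2, level -1.64, ratio 0.742), Gdf15 (replicate 2, level 4.30, ratio 0.723), Hpgds (replicate 3, level 0.59, ratio 0.722), Lcn2 (replicate 4, level 1.90, ratio 0.743), Ms4a1 (replicate 1, level 2.21, ratio 0.759), Pira2 (replicate 2, level 4.55, ratio 0.867), Rps4l (replicate 5, level 2.48, ratio 0.718) and Vegfc (replicate 3, level -2.24, ratio 0.804). Among NASH arrays they were Adgrg1 (replicate 3, level -1.50, ratio 0.848), Cyp26b1 (replicate 3, level 0.84, ratio 0.751), Gbp7 (replicate 3, level 0.24, ratio 0.717), Mmp8 (replicate 3, level 2.81, ratio 0.794) and Rxra (replicate 2, level -0.27, ratio 0.897). Every one of these genes passed in the direction reported with the array in question left out. What set these arrays apart was not tested.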

How the results depend on the processing

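Across 24 alternatives, 10 of them leaving out 1 array, the number of genes that passed and the number of lists with a median above that of all genes (74 of 118) stayed within 1.5 times. Exceptions among the counts were those at 2-fold. Genes at least 2-fold higher numbered 424 and genes at least 2-fold lower 350 with normexp background correction, which kept 771 of the 1527 genes (50.5%), and 489 were at least 2-fold lower where every array had to be well above background, since that filter removes genes that fell to background. The mean of a gene's probes turned the change of Itgam to 0.3773. Quantile normalization turned the change of Adgre1 to -0.05732 and the split of calls to 4835 higher and 5040 lower. The causes were not tested further. Without 1 array in turn, 6322 to 6536 genes were higher and 3669 to 3859 lower, 10074 to 10216 changed in all, 681 to 715 were at least 2-fold higher and 819 to 845 at least 2-fold lower, 73 to 76 lists lay above all genes, and 211 of the 211 named genes that passed did so each time. Jag1 and Itga7, with an outlying wildtype array, and Ncf1, whose sign turned with quantile normalization, were left out of the report after these values were seen, so the counts of named genes do not cover them.

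Replicate numbers are shared by the groups, but same-numbered arrays correlated at 0.058 to 0.373 after group means were removed, not all above 0.1, so that the numbers were not taken as pairs. With the replicate block 6757 genes were higher and 3979 lower, 10736 in all, no named gene that had passed was lost, and Acly was gained (adjusted p = 0.0234, limma). Calls were also gained for Acly with the slide as a block, on each slide alone, with quantile normalization and with the mean of probes, for Clock with quantile normalization, on slide 1 alone and with the replicate block and slide, for Cd3e on slide 2 alone and for Nlrp3 with the mean of probes. Within slides, Serpinb2 did not pass on slide 1 alone, nor Alox15 and Arntl on slide 2 alone, where Olr1 changed by 3.30 and Per3 by -2.58. With normexp 52 named genes moved by over 1.5 times, all in the direction reported, among them Klf5 (0.61), Cxcl3 (0.80), Xcr1 (-0.72) and Dll1 (-0.29). Those that moved most were Prok2 (5.27 to 2.15), Mogat2 (5.45 to 2.36), Mycl (-4.37 to -1.38), Slc27a6 (-4.20 to -1.56) and Adra2c (-4.70 to -2.31). Each of these is reported above by a bound. Replacing genes measured in 1 group by their bounds moved a list's median by at most 0.20.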

Other observations

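Probes that no RefSeq accession named were outside every comparison above. Of 10833 such probes well above background in at least 1 group, 475 (4.38%) were 2-fold or more higher and 944 (8.71%) 2-fold or more lower in NASH cells, with a median change of 0.155 (limma, adjusted over these probes). Of the 1527 named genes that changed at least 2-fold, 1087 belonged to none of the lists or families.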
